A study of Mus musculus with 2 samples.

Results

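Among neutrophils of 4T1 tumor-bearing lungs that were neither immature nor interferon-stimulated, Retnlg-low mature neutrophils carried the least Retnlg, Mmp8 and Ly6g RNA. They were chosen by measured values in 2 single-cell libraries, 1 from mice given saline and 1 from mice given nanoparticles (NP). Cells entered with between 500 and 5000 genes seen and mitochondrial RNA below 7.5% of their UMIs (unique molecular identifiers, each counting 1 captured RNA molecule). It was called a neutrophil when S100a8 and S100a9 made up at least 5% of its UMIs, when Csf3r, Cxcr2, Retnlg, Ly6g, Mmp8 and Ngp together had at least 2 UMIs, and when F13a1, Ccr2, Cd79a, Cdh5 and Cd3e together had at most 1. Immature neutrophils (Ngp, Camp and Ltf at least 1% of UMIs) and interferon-stimulated neutrophils (Isg15, Rsad2, Ifit1, Ifit3 and Cxcl10 at least 0.3%) were set aside. Of the rest, the cells in which Retnlg, Mmp8 and Ly6g together were below the median share over both libraries were selected, and those at or above it are called Retnlg-high neutrophils. This gave 3642 Retnlg-low neutrophils among 8324 neutrophils and 16995 cells, 2299 in the saline and 1343 in the NP library.

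Both libraries came from female BALB/c mice aged 12 weeks that had been inoculated with 100000 4T1 cells, a metastatic mouse mammary carcinoma line that the study used as its 4T1-luc2-tdTomato derivative and placed in the fourth mammary fat pad. Mice received intravenous saline or cargo-free PLG (poly(lactide-co-glycolide)) nanoparticles from day 1, every 3 days for 5 doses, and lungs were collected on day 14. Per the labels the lungs of 4 mice were pooled for each library, so the pool was the unit, treatment and library cannot be told apart, and no test of treatment was possible. Lungs were digested with liberase and red cells were lysed, and neutrophils of lung vessels cannot be told apart from those of lung tissue. The libraries held 91168129 saline and 90081747 NP UMIs, and 8662 and 8333 cells passed the limits with medians of 6474.5 and 6008 UMIs. The libraries shared 21 cell barcodes, 1 of them among Retnlg-low neutrophils.

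Neutrophils leave the bone marrow loaded with granule proteins whose genes are read in succession during development, and they transcribe fewer of these genes as they mature. Older neutrophils respond to inflammatory signals by making cytokines such as IL-1β, and neutrophils accumulate in tumor-bearing lungs, where they can aid or restrain metastatic cells. Interferons add another program, in which guanylate-binding proteins (Gbp) and immunity-related GTPases (Irg, here Irgm1, Irgm2, Igtp, Ifi47 and others) are made to attack vacuoles that hold microbes.

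The promoters of 4 such GTPase genes are shown because this gene group separated the libraries most clearly among Retnlg-low neutrophils. Each runs from 250 bases before to 50 bases after a transcription start and is credited to RefSeq on GRCm38.p6. They are Gbp5 at chr3:142496684-142496983, Ifi47 at chr11:49076337-49076636, Igtp at chr11:58199306-58199605 and the first of the Gbp3 starts at chr3:142559794-142560093, with the plus strand read throughout. Capitals mark matches to the core of the interferon-stimulated response element (GAAA, NN and GAAA in a row, or TTTC, NN and TTTC when read on the other strand) and to the gamma-activated site (TTCNNNGAA, the same on both strands).
Gbp5: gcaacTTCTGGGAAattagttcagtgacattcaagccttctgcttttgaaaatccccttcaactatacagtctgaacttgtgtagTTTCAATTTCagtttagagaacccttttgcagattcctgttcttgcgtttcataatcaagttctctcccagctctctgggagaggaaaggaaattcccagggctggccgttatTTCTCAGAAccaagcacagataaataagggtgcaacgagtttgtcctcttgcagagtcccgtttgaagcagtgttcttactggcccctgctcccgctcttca
Ifi47: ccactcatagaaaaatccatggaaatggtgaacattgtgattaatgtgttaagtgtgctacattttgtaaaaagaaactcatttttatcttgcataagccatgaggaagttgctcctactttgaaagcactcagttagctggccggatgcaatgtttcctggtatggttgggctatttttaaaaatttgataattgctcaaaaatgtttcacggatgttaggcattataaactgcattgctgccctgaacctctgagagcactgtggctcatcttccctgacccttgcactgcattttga
Igtp: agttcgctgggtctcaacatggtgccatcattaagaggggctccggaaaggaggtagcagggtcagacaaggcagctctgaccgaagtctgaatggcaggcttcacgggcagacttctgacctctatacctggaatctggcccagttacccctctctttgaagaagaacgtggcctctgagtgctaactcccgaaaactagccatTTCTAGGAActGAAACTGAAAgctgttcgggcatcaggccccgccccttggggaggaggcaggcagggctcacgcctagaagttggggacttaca
Gbp3: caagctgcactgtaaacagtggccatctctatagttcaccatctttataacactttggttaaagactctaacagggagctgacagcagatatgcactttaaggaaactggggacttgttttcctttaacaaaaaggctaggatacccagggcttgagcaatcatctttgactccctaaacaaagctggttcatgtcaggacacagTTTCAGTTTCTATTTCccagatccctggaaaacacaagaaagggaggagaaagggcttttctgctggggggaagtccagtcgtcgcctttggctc
The Gbp5 window held 1 match to the response element and 2 to the gamma-activated site, Igtp held 1 of each, and Gbp3 held 2 overlapping matches to the response element. No match lay in the Ifi47 window. Among 32851 RefSeq promoters of this length, 3.44% held the response element letters and 8.30% the gamma-activated site letters. Of the 11 GTPase genes with a RefSeq promoter, 10 held the first and 6 the second, against 3.99 and 9.55% of 27025 genes. The response element letters were in 20 and the site letters in 8 of 39 antiviral genes, 7 and 9 of 29 other interferon-γ genes, 2 and 7 of 39 TNF and NF-κB genes and 0 and 1 of 5 maturity marker genes. These are letter matches and not binding sites.

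Retnlg-low neutrophils made up 43.0% of saline neutrophils and 45.0% of NP neutrophils, with exact 95% binomial intervals of 41.7 to 44.4% and 43.2 to 46.8%. Exact intervals here and below cover counting error only, and not the spread between mice or, for ratios of UMIs, between cells. The intervals overlapped, while those of the other classes lay further apart. Retnlg-high neutrophils were 48.2% of saline and 35.9% of NP neutrophils, immature cells 8.14% and 11.2%, and interferon-stimulated cells 0.655% and 7.88%. Among mature neutrophils outside the interferon class, the Retnlg-low share was therefore 47.2% in saline and 55.7% in NP, a log2 ratio of 0.24 (95% interval 0.17 to 0.31). Of all cells, Retnlg-low neutrophils were 26.5% in saline and 16.1% in NP, since neutrophils as a whole were 5342 saline and 2982 NP cells. The limit was a median over both libraries, and with the median of each library (0.677% saline, 0.437% NP) the shares are equal by construction.

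**Figure D1:**
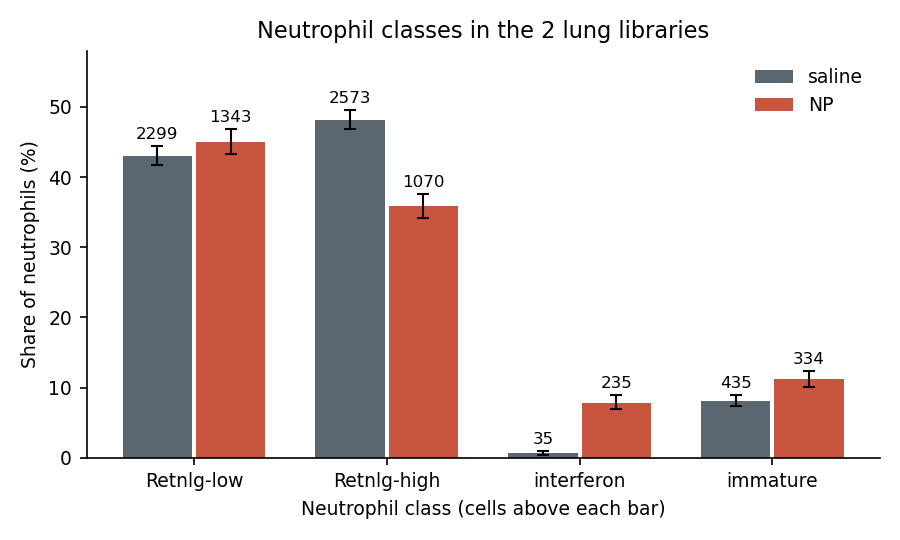
Bars give the share of neutrophils (%) in each of 4 classes for the saline and NP library, with exact 95% binomial intervals and the number of cells above each bar. The Retnlg-low share is 43.0% in saline and 45.0% in NP, while the Retnlg-high share is 48.2% and 35.9%.

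The limit of 0.597% cut a continuous range. The highest Retnlg-low cell and the lowest Retnlg-high cell both lay at 0.597%, and 114 saline and 42 NP Retnlg-low cells lay within 10% below it, against 105 and 37 Retnlg-high cells within 10% above. Retnlg, which encodes a resistin-like secreted protein, stood at 5010 saline and 5046 NP CPM (UMIs per 1000000 UMIs, pooled over the cells of a class) just inside the limit and at 5584 and 5772 CPM just outside. Over the whole class it was at 2086 CPM in saline and 1823 CPM in NP, against 18626 and 18600 CPM in Retnlg-high cells. Mmp8, the neutrophil collagenase, was at 215 and 169 CPM against 924 and 888 CPM, and Ly6g, the surface antigen used to sort mouse neutrophils, was at 76.3 and 64.8 CPM against 564 and 761 CPM. No UMI of these 3 genes was seen in 257 saline and 220 NP Retnlg-low cells.

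The label of the class rests on 5 maturity markers, and 3 of them were higher than in Retnlg-high cells beyond the shift of a typical gene in both libraries. Retnlg-low cells had a median of 4179 UMIs in saline and 4160 in NP, and Retnlg-high cells 9033 and 8174.5. The median gene with at least 200 UMIs was higher in Retnlg-low cells by 0.55 on the log2 scale in saline and 0.57 in NP. Il1b, which encodes the cytokine IL-1β, was at 16224 saline and 18737 NP CPM in Retnlg-low cells and at 6162 and 7656 CPM in Retnlg-high cells, a log2 ratio of 1.40 and 1.29. Csf3r, the G-CSF receptor, had ratios of 0.77 and 0.79, and Steap4, a metalloreductase, 0.68 and 0.81. Hdc, which makes histamine from histidine, was at 1111 and 1407 CPM against 767 and 896 CPM, with ratios of 0.54 and 0.65, so that it lay 0.02 below the median gene in saline and 0.08 above it in NP. Cxcr2, the receptor for neutrophil chemokines, had ratios of 0.48 and 0.39 and lay 0.08 and 0.18 below the median gene. Csf3r and Cxcr2 also entered the neutrophil call, and since the class was split on measured values these ratios are descriptions. The 5 markers summed to 24755 saline and 25062.5 NP CPM in interferon-stimulated neutrophils, against 21149 and 24300 CPM in Retnlg-low cells. In Retnlg-low cells Il1b alone gave 16224 and 18737 CPM of these sums. A high sum was thus not particular to Retnlg-low cells, which need not hold for each marker.

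Outside that list, a receptor linked to neutrophil ageing was higher in the class. Cxcr4, the receptor that draws aged neutrophils back to the marrow, was at 311 saline and 273 NP CPM in Retnlg-low cells against 64.7 and 57.2 CPM in Retnlg-high cells, a log2 ratio of 2.26 and 2.25. The median over 20 trafficking and adhesion genes lay 0.20 and 0.21 below the median gene. Whether maturity was terminal was not measured by these counts. After each cell was thinned to 1000 UMIs, Il1b was seen in 99.3% of saline and 100% of NP Retnlg-low cells, in 92.1 and 94% of Retnlg-high cells and in 30.3 and 26.5% of immature cells. Without thinning the Retnlg-low share was 100% in both libraries. B cells, which should lack Il1b RNA, showed it in 9.1 and 5.4% of thinned cells at median depths of 4410 and 4506 UMIs, the background share here, and doublets were not called. Levels of Cd79a, Cdh5 and Ccr2 were limited by the neutrophil call and are no check of it, and sums over marker lists of other cell types are given with the treatment comparison.

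**Figure D2:**
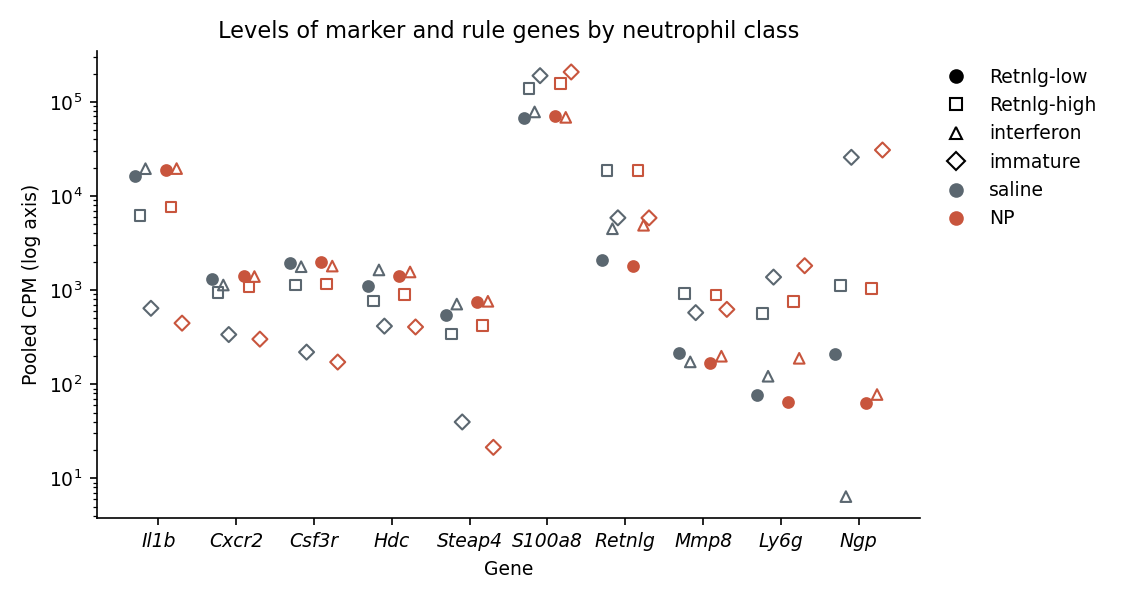
Points give the pooled CPM (log axis) of 10 genes in 4 neutrophil classes of the saline and NP library, with the Retnlg-low class as filled circles. Il1b is at 16224 and 18737 CPM in Retnlg-low cells and at 641 and 446 CPM in immature cells, while Retnlg, Mmp8, Ly6g and Ngp chose the class and are low by choice.

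Across all genes with at least 200 UMIs, 773 (11.4% of 6781) were at least 2-fold higher in Retnlg-low than in Retnlg-high cells in both libraries and 87 (1.28%) were at least 2-fold lower. Measured from the median gene, 121 (1.78%) were higher and 279 (4.11%) lower, so that the balance of directions depends on this scaling. Neither count is evidence about the class, because the class was cut from the same cells. Among the genes with the highest ratios were Clec4n, which encodes the fungal pattern receptor Dectin-2 (log2 ratio 2.86 in saline, 2.98 in NP), Clec4a3, another C-type lectin receptor (2.53, 2.51), Dusp2, a MAP kinase phosphatase (2.50, 2.80), Pmaip1, which encodes the death-promoting protein Noxa (2.50, 3.10), Scimp, an adaptor of Toll-like receptor signaling (2.93, 3.73) and the antisense transcript Il1bos (3.42, 3.52), whose reads can be told from those of Il1b only by strand. Fam49a (2.82, 2.54), Ccdc146 (2.85, 2.94) and Filip1l (2.92, 2.41) were in the same range. Lyz1 had the highest ratio by this ranking, but 1 cell held 702 of its 746 saline UMIs and 1 cell held 1080 of its 1112 NP UMIs. Among the lowest were Cd177, a surface protein of neutrophil granules (−2.47, −3.03), Ifitm6 (−2.54, −3.22), Prok2, a secreted prokineticin (−2.20, −2.52), Chil5, a chitinase-like protein (−2.57, −3.21), Mgst2 (−2.57, −4.00) and Serpinb1a, an inhibitor of neutrophil serine proteases (−2.13, −2.97).

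Gene lists followed the same order. Of 43 genes of the TNF and NF-κB response with 200 UMIs, 21 were at least 2-fold higher in Retnlg-low cells in both libraries, where 11.4% of genes were, and 0 were lower. From the median gene 8 were higher, where 1.78% of genes were, and 1 was lower, and the list median lay 0.54 and 0.68 above the median gene. Ptgs2, the inducible prostaglandin synthase, was at 329 saline and 547 NP CPM against 69.6 and 153 CPM, and Ccrl2, a receptor that presents chemerin, was at 664 and 1211 CPM against 143 and 273 CPM. Secondary granule genes had medians 1.61 and 1.41 below the median gene, tertiary granule genes 1.1 and 1.19 below, and alarmins and stefins 1.40 and 1.20 below. Primary granule genes were nearer to it, with medians 0.12 and 0.25 below. Lcn2, the iron-withholding granule protein, was at 1853 and 1350 CPM against 5251 and 4689 CPM. Genes known to respond to tissue dissociation also moved with the split, with 8 of 21 at least 2-fold higher (3 from the median gene) and a median 0.45 and 0.39 above the median gene, and their part in the other ratios was not tested. Medians for primary granule, trafficking, antiviral, glycolysis, suppressive and pattern receptor lists were above 0 by CPM and below the median gene in both libraries. For ribosomal proteins this held in saline.

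Levels also varied inside the class along the values that had chosen it, which describes the rule's own variable and is no support for the class. Retnlg-low cells of each library were placed in 5 bins of nearly equal size by their Retnlg, Mmp8 and Ly6g share. From the lowest to the highest bin, Il1b went from 22087 to 11429 CPM in saline and from 22816 to 15337 CPM in NP, and Cxcr4 from 561 to 175 CPM and from 454 to 119 CPM. Ccrl2 went from 1230 to 340 CPM and from 1887 to 716 CPM. Ccl3, a chemokine that attracts monocytes and other leukocytes, went from 133 to 27.8 CPM and from 191 to 47.0 CPM, and Csf1, the macrophage growth factor, from 288 to 94.8 CPM and from 261 to 83.7 CPM. In the other direction S100a8, a subunit of the alarmin calprotectin, went from 35755 to 97054 CPM in saline and from 45333 to 102917 CPM in NP, and Prok2 from 65.1 to 360 CPM and from 25.2 to 290 CPM.

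Of 5075 genes with 200 UMIs, 174 (3.43%) were at least 2-fold higher in the lowest than in the highest bin in both libraries and 56 (1.1%) were lower, while 220 were higher and 34 lower at every step toward the lowest bin in both libraries. The median gene was higher in the lowest bin by 0.40 in saline and 0.36 in NP, and median depth went from 3408 to 5329 UMIs and from 3425 to 5387.5 UMIs across the bins. Of 40 TNF and NF-κB genes, 12 were 2-fold higher in the lowest bin and 0 lower, of 13 alarmins and stefins 7 were lower and 0 higher, and of 21 dissociation genes 3 were higher, and 11 had a higher level at every step toward the lowest bin. The 174 genes became 87 without cells that carried a UMI of 5 other-type genes or lay in the top 5% of UMIs.

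**Figure D3:**
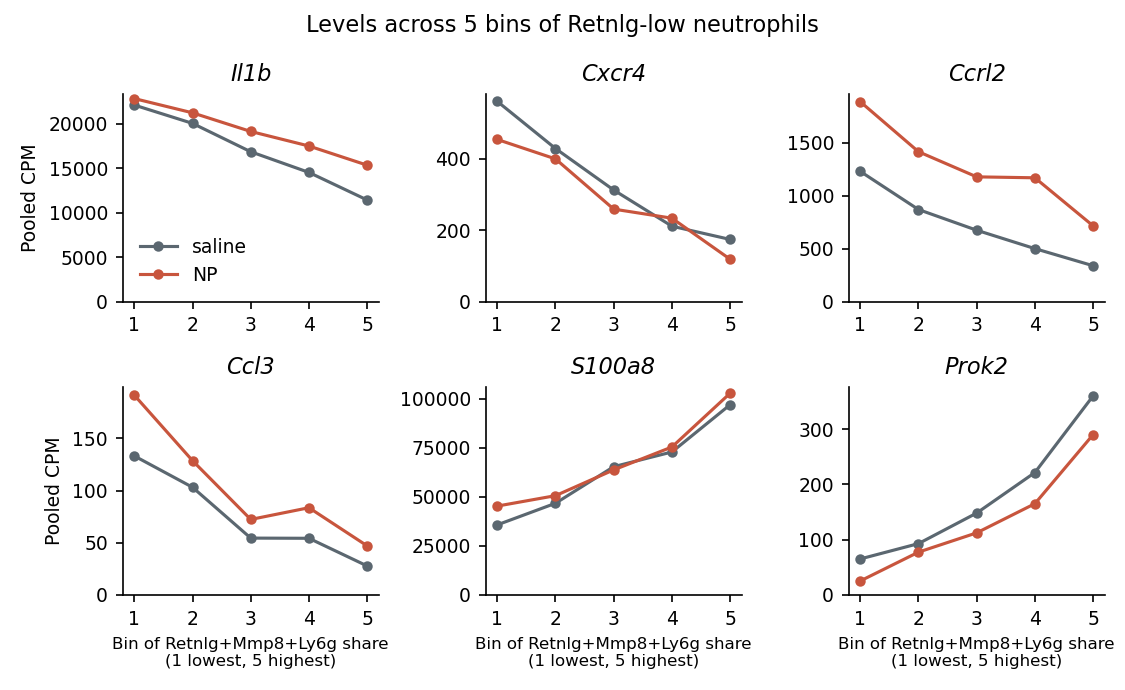
Lines give pooled CPM of 6 genes across 5 bins of Retnlg-low neutrophils, from the lowest to the highest share of Retnlg, Mmp8 and Ly6g UMIs, for the saline and NP library. Il1b, Cxcr4, Ccrl2 and Ccl3 are lower in bin 5 than in bin 1 in both libraries, and S100a8 and Prok2 are higher.

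Between treatments, the Retnlg-low neutrophils of the NP library had higher levels of interferon-induced genes, of class I presentation genes and of part of the TNF and NF-κB response. Primary granule genes, of which 5 were measured with mixed directions, and ribosomal genes had medians below that of all genes. Among 5088 genes with at least 200 UMIs in Retnlg-low cells, 87 (1.71%) were at least 2-fold higher in NP and 32 (0.629%) at least 2-fold lower. The median gene was 0.13 lower in NP, and measured from it 107 genes (2.1%) were higher and 20 (0.393%) lower. Of the 87 genes, 39 were on at least 1 of the 4 lists of interferon and class I genes, 10 on the TNF and NF-κB list, 6 on marker lists of other cell types and 29 on no list, and 3 were genes of the selection rule. Of the 5088 genes, the 4 interferon and class I lists held 10 GTPase, 29 antiviral, 22 other interferon-γ and 19 class I genes, with overlaps. The TNF and NF-κB list held 40. In Retnlg-high neutrophils 83 of the 87 had the same direction and 55 also reached 2-fold. The share of all genes with such agreement was not counted, so these 2 counts are descriptions.

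Guanylate-binding proteins and immunity-related GTPases had the largest list median. Of 19 listed genes 18 were in the matrices and 13 had at least 20 UMIs in Retnlg-low cells, and 13 of 13 were at least 2-fold higher in NP, where 5.12% of 9605 genes with 20 UMIs were. The filter summed both libraries, and Gbp4, Gbp8 and Iigp1 reached it only through their NP UMIs. On saline UMIs alone 10 genes reached 20, of which 10 were at least 2-fold higher with a median of 2.48, where 2.6% of 8694 genes were, a filter chosen after seeing the data. The 13 log2 ratios ran from 1.70 to 4.36 with a median of 2.65, or 2.79 from the median gene, and the median in Retnlg-high cells was 2.38. Together they gave 287 CPM in saline and 1586 CPM in NP Retnlg-low cells, against 157 and 695 CPM in Retnlg-high cells. These families have close paralogs, so the division of reads between members such as Gbp2 and Gbp2b is uncertain.

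Gbp5 (chromosome 3, 142493978 to 142522344, GRCm38), which helps assemble inflammasomes, had 24 saline and 222 NP UMIs, or 2.21 and 36.1 CPM, a log2 ratio of 4.03 (95% interval 3.42 to 4.70). Ifi47 (chromosome 11, 49076587 to 49096974), an immunity-related GTPase, had 109 and 841 UMIs, or 10.0 and 137 CPM, a ratio of 3.77 (3.48 to 4.07). Igtp (chromosome 11, 58199556 to 58207591), also known as Irgm3, went from 28.6 to 185 CPM, a ratio of 2.69 (2.51 to 2.88), and Gbp3 (chromosome 3, 142560026 to 142573209) from 6.90 to 43.4 CPM, a ratio of 2.65 (2.28 to 3.04). These are the genes whose promoters are printed above, and the 4 ratios were of the same order in Retnlg-high cells, with 4.22 for Gbp5 and 3.41 for Ifi47. Gbp2b was at 70.9 and 410 CPM (2.53, interval 2.42 to 2.65), Gbp2 at 68.8 and 349 CPM (2.34, 2.22 to 2.46) and Irgm1, a regulator of the other immunity-related GTPases, at 24.3 and 130 CPM (2.42, 2.22 to 2.63). The highest ratios of the list rested on few UMIs, with 4 and 38 for Gbp8 (4.07, 2.59 to 6.02) and 2 and 35 for Iigp1 (4.36, 2.99 to 8.05), where a count under 3 was set to 3.

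GTPase RNA was seen in most NP cells. At least 1 GTPase UMI was seen in 1221 saline Retnlg-low cells (53.1%) and 1143 NP cells (85.1%), at median depths of 4179 and 4160 UMIs. At 1000 UMIs per cell the shares were 21.5 and 56.5%, against 14.0 and 40.4% in Retnlg-high cells, 2.5 and 6.1% in immature cells and 15.5 and 19.9% in B cells. B cells make these RNAs themselves, at 202 saline and 317 NP CPM, so they are not a background here. The median Retnlg-low cell had 1.59 GTPase UMIs per 10000 UMIs in saline and 9.19 in NP, with quartiles of 0 and 3.99 in saline and of 3.04 and 21.1 in NP. The 10% of cells with the most GTPase UMIs held 47.4% of them in saline and 41.8% in NP.

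The selection rule had removed cells with high Isg15, Rsad2, Ifit1, Ifit3 and Cxcl10 shares, and these were more numerous in NP. A UMI of these genes nevertheless stood in 977 saline (42.5%) and 982 NP (73.1%) Retnlg-low cells. In the 1322 saline and 361 NP cells with none, summed GTPase RNA was at 195 and 662 CPM, a log2 ratio of 1.76 (1.64 to 1.89), against 2.46 (2.41 to 2.52) in the whole class. The same sum had a ratio of 2.15 (2.09 to 2.20) in Retnlg-high, 1.85 in interferon-stimulated and 1.25 in immature neutrophils.

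**Figure D4:**
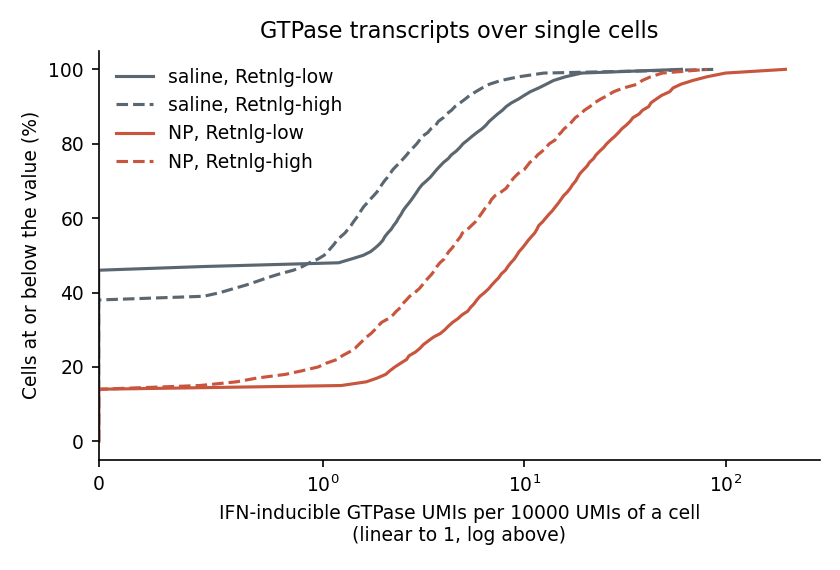
Lines give the percentage of cells at or below each number of interferon-inducible GTPase UMIs per 10000 UMIs of a cell (axis linear to 1 and logarithmic above), for Retnlg-low (solid) and Retnlg-high (dashed) neutrophils of both libraries. The median is 1.59 in saline and 9.19 in NP Retnlg-low cells.

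Other interferon genes followed. Of 39 antiviral genes measured, 22 were at least 2-fold higher in NP and 0 lower, with a median log2 ratio of 1.31, where 5.12% of the 9605 genes with 20 UMIs were higher and 3.74% lower. On saline UMIs alone 18 of 34 were higher, with a median of 1.26. The 22 included Isg15, Rsad2, Ifit1 and Ifit3, whose values the rule had used, and the median over the 35 other genes was 1.26. Isg15, Rsad2 and Ifit1 were also among the 18. Zbp1, a sensor of Z-form nucleic acids, was at 21 saline and 144 NP CPM (2.78, interval 2.57 to 3.00). Herc6 had a ratio of 2.23 (1.82 to 2.66) and Ifit3b of 2.69 (1.85 to 3.63). The 4 most abundant members were below 2-fold. Ifitm1 was at 12566 and 10948 CPM (−0.20) and Ifitm2 at 5246 and 4860 CPM (−0.11, which is 0.02 above the median gene). Ifitm3 was at 1343 and 1898 CPM (0.50, 0.46 to 0.53) and Samhd1, which hydrolyzes nucleotides, at 557 and 913 CPM (0.71, 0.66 to 0.77). Of 29 other genes of the interferon-γ response, beside the same 5.12%, 17 were at least 2-fold higher and 0 lower, with a median of 1.13, or 1.12 over the 28 without Cxcl10, a gene of the rule. On saline UMIs alone 15 of 26 were higher. Irf1, a transcription factor of the interferon response, was at 176 and 545 CPM (1.63, 1.55 to 1.71). Socs1, which restrains cytokine receptor signaling, was at 10.2 and 38 CPM (1.90, 1.56 to 2.24). Cd274, which encodes the checkpoint ligand PD-L1, was at 14.6 and 96.0 CPM (2.71, 2.46 to 2.98). Ifngr1, a chain of the interferon-γ receptor, was at 535 and 410 CPM (−0.39, −0.45 to −0.32).

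Class I presentation genes were higher by smaller steps. Of 22 genes, 10 were at least 2-fold higher, where 5.12% of genes with 20 UMIs were, and 0 lower, with a median of 0.90. H2-K1, a classical class I heavy chain, was at 274 and 680 CPM (1.31, 1.24 to 1.38), while H2-D1, another heavy chain, was at 3605 and 5292 CPM (0.55, 0.53 to 0.57) and B2m, their light chain, at 1279 and 2045 CPM (0.68, 0.64 to 0.71). Tap1, which carries peptides to class I molecules, was at 58.1 and 167 CPM (1.52, 1.38 to 1.67), and Psmb8, an immunoproteasome subunit, at 176 and 361 CPM (1.04, 0.95 to 1.13). Nlrc5, the activator of class I genes, was at 3.5 and 16.6 CPM (2.24, 1.69 to 2.82). H2-Q6 and H2-Q7 had ratios of 3.10 and 2.07, but their reads can be shared between near-identical genes. Class II genes, which neutrophils hardly express, had a median of 1.15 over 7 genes and summed to 65.7 and 146 CPM. The median was 1.81 in Retnlg-high cells. For Cd74, the most abundant of them, 1 cell held 33.6% of saline and 1 cell 13.3% of NP UMIs. Its ratio was 1.20, and 1.58 without the top cell of each library.

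Genes of the TNF and NF-κB response mostly had ratios above 0. Of 46 genes measured, 45 did, where 33.2% of the 9605 genes with 20 UMIs did. At least 2-fold higher were 12 and lower 0, where 5.12 and 3.74% of those 9605 genes were. The median was 0.52, or 0.65 from the median gene. Tnf itself had 89 and 160 UMIs, or 8.2 and 26 CPM (1.67, 1.28 to 2.06), against 0.38 in Retnlg-high cells. Cxcl2, a ligand of Cxcr2, was at 2132 and 4747 CPM (1.16, 1.13 to 1.18), Nfkbia, the inhibitor of NF-κB, at 739 and 1591 CPM (1.11, 1.06 to 1.15), Icam1, the adhesion ligand of β2 integrins, at 13.3 and 35.9 CPM (1.43, 1.12 to 1.74) and Traf1 at 16.8 and 43.4 CPM (1.37, 1.09 to 1.64). Icam1 is also on the list of other interferon-γ genes. Acod1, which makes itaconate, was at 168 and 519 CPM (1.63, 1.54 to 1.71), a gene chosen after its values were seen. Dissociation genes had a median of 0.21 over 21 genes with 0 at 2-fold, and their part in these ratios was not tested.

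**Figure D5:**
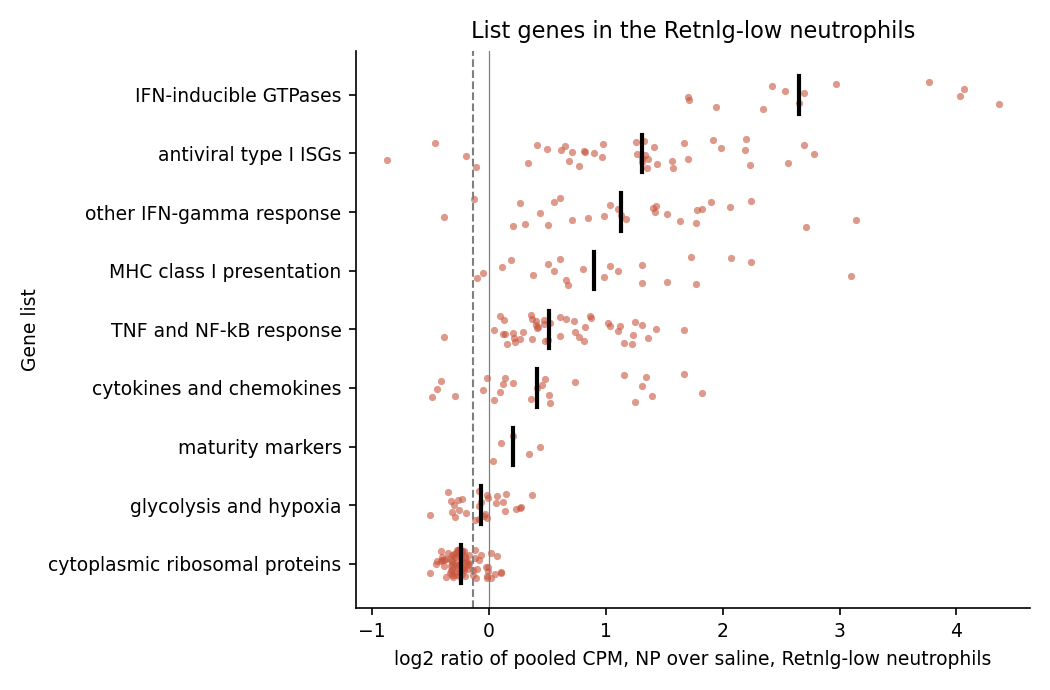
Points give log2 ratios of pooled CPM, NP over saline, for genes of 9 lists with at least 20 UMIs in Retnlg-low neutrophils, black bars give list medians, and the dashed line marks the median gene at −0.13. GTPase genes lie between 1.70 and 4.36, and ribosomal protein genes have a median of −0.24.

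The maturity markers differed little between libraries, and the counts of the next lists stand beside the 5.12% of genes with 20 UMIs that were at least 2-fold higher. Il1b had a log2 ratio of 0.21 (0.20 to 0.22), Cxcr2 0.10, Csf3r 0.04, Hdc 0.34 and Steap4 0.44, with 0 of 5 at 2-fold. Of 15 genes of the IL-1 family and inflammasome 2 were at least 2-fold higher, with a median of 0.21. One of them, Il18bp, which encodes the soluble inhibitor of IL-18, was at 14.3 and 48.9 CPM (1.78, 1.49 to 2.07). Survival and death genes had a median of 0.16 and 2 of 23 at 2-fold, Bcl2a1a (1.22) and Bcl2a1b (1.03), which are near-identical survival genes. Mcl1, on which neutrophil survival depends, was at 2623 and 2938 CPM (0.16, 0.14 to 0.19). Cytokines and chemokines had 7 of 25 at least 2-fold higher and a median of 0.41. On saline UMIs alone 6 of 24 were higher. Those higher included Cxcl10, a gene of the rule, and the median over the 24 other genes was 0.39. Ccl5, also among them, had 1.39, but 0.91 without the top cell of each library. Pattern and Fc receptors had a median of 0.27 with 1 of 29, Cd36, at 2-fold (1.34). Trafficking genes had a median of 0.08 with 2 of 21 at 2-fold, Icam1 and Pecam1 (1.15), so that the shares of the survival, receptor and trafficking lists were near that of all genes.

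Lists of suppressive, metabolic and effector functions stayed near the median gene. Suppressive and lipid mediator genes had a median of 0.05, with 1 of 20, Cd274, at 2-fold. Genes of late tumor-associated neutrophils had a median of 0.00 over 25 genes, oxidase, NET and antioxidant genes 0.01 with 0 of 23 at 2-fold, transcription factor and clock genes 0.09 over 29 genes and glycolysis and hypoxia genes −0.07 (0.07 above the median gene) with 0 of 29. With the filter on saline UMIs alone, 0 of 24 late tumor-associated and 0 of 26 transcription factor and clock genes were at 2-fold. Within them Plin2, a lipid droplet coat protein, was at 450 and 270 CPM (−0.73, −0.81 to −0.65), and Cybb, the catalytic chain of the phagocyte oxidase, at 42.6 and 76.5 CPM (0.85, 0.66 to 1.03).

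Medians of the granule lists were below 0. Primary granule genes had a median of −1.21, with 3 of 5 at least 2-fold lower, where 3.74% of the 9605 genes with 20 UMIs were, on sums of 94.9 saline and 74.3 NP CPM. Across the processing alternatives this median ran from −1.34 to −0.50, and in Retnlg-high cells it was −0.37. Prtn3, a neutrophil serine protease, had 143 and 32 UMIs (−1.34, −1.94 to −0.78). The list median was the ratio of Serpinb1a, the protease inhibitor, and Prss57 had −0.71. Ctsc, the most abundant gene of the list, went the other way with 0.29. Secondary granule genes had a median of −0.35 with 2 of 12 lower, Ltf (249 and 36 UMIs, −1.97, −2.52 to −1.46) and Ngp (2293 and 393 UMIs, −1.72, −1.88 to −1.57), both genes of the granule limit, so that these ratios are descriptions. Without rule genes the median was −0.21, near the −0.13 of the median gene. In Retnlg-high cells Ngp had −0.12 and Ltf −0.47. Tertiary granule genes had a median of −0.19 with 0 of 9 at 2-fold, or −0.11 without rule genes. The Ngp and Ltf ratios moved with the choice of cells, to −0.15 and −0.36 without cells that had UMIs of other types or lay in the top 5% of UMIs, and to −0.26 and −0.31 with the lower quartile in place of the median. They were −0.69 and −0.84 with equal weight per cell, −0.73 and −0.67 at 1000 UMIs per cell and −1.23 and −1.04 with the granule limit at 0.5%. In the other direction they were −2.73 and −4.97 with free RNA subtracted, and Ngp was −2.52 with a median within each library.

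Alarmins and stefins had a median of −0.17, or −0.35 over the 15 that were not rule genes, beside −0.13 for the median gene. Of 17 genes 2 were at least 2-fold lower, beside 3.74% of genes with 20 UMIs. One was Saa3, an acute-phase protein, at 4278 and 1611 CPM (−1.41, −1.44 to −1.38), with −2.75 in Retnlg-high cells. The other was Stfa3, a stefin that inhibits cysteine proteases, at 685 and 320 CPM (−1.10, −1.17 to −1.02), with −1.12 in Retnlg-high cells and reads that near-identical stefins can share. S100a8 and S100a9, both genes of the rule, were nearly level, with ratios of 0.07 and 0.01. Mustn1 (212 and 29 UMIs, −2.05), Acot1, an acyl-CoA thioesterase (186 and 26 UMIs, −2.02), Ggt1, a glutathione-degrading enzyme (238 and 39 UMIs, −1.79, but −0.66 without cells that had UMIs of other types or lay in the top 5% of UMIs, and −0.34 with the lower quartile) and Coq8a, which acts in coenzyme Q synthesis (192 and 35 UMIs, −1.64), were among the lowest ratios. Acot1 was −1.12 with the lower quartile, and Mustn1 −3.47 at 1000 UMIs per cell. Kit, the stem cell factor receptor, was at 76.4 and 32.5 CPM (−1.23), and Fkbp5, a glucocorticoid-induced immunophilin, at 22.2 and 7.5 CPM (−1.57), both chosen after their values were seen. The rest of the 10 lowest ratios were Hbb-bt, Hbb-bs and Hba-a1, which encode hemoglobin chains, and the club cell secretory gene Scgb1a1. Of 78 ribosomal protein genes, 6 had ratios above 0 and 0 reached 2-fold, with a median of −0.24, or −0.11 from the median gene.

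Transcripts of other cell types moved with the libraries in Retnlg-low cells. All 9 endothelial markers had ratios above 0 and 8 were at least 2-fold higher, where 33.2 and 5.12% of genes with 20 UMIs did so. They had sums of 56.4 saline and 138 NP CPM, Epas1 as the most abundant gene and Cdh5 at 1.8 and 5.0 CPM. Cdh5 is a gene of the rule, and the median over the 8 other markers was 1.29. Of 10 monocyte markers 6 were at least 2-fold higher, or 5 of 8 on saline UMIs alone. Their sums were 242 and 402 CPM, with Ctss as the most abundant and Ccr2 at 4.6 and 5.8 CPM. The 10 also held 1 gene of the rule, and the median over the 9 others was 1.07. Of 8 alveolar macrophage markers 4 were higher, with sums of 122 and 219 CPM and Chil3 as the most abundant. Fibroblast markers summed to 9.57 and 23.6 CPM, and of the 4 measured 1 had 20 UMIs in saline alone, so that their count was set by the filter. Higher were also 3 of 7 T and NK cell markers, or 2 of 5 on saline UMIs alone, on sums of 53.3 and 82.4 CPM. Among those higher, Gzma had 1.39, but 0.54 without the top cell of each library. Platelet markers summed to 21.4 and 34.9 CPM and B cell markers to 19.1 and 23.9 CPM. Of the dendritic cell and the basophil and eosinophil lists 1 gene each was measured. The part of these cells in the interferon ratios was not tested. GTPase RNA over all cells that were not neutrophils was at 321 CPM in saline and 976 CPM in NP, against 287 and 1586 CPM in Retnlg-low cells. Free RNA was estimated at 2.05% of saline and 1.75% of NP Retnlg-low UMIs. Epithelial markers summed to 734 and 862 CPM with a median of 0.33, and 1 cell in each library held 5126 of 5537 saline and 3677 of 4237 NP UMIs of the surfactant gene Sftpc.

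Of 5004 genes with enough UMIs in both classes, 10 (0.2%) had an NP over saline ratio at least 2-fold higher in Retnlg-low than in Retnlg-high cells and 11 (0.22%) at least 2-fold lower, each with an interval beyond 0. The 10 with the largest differences were markers of other cells or genes carried by single cells, namely Rarres2, Hbb-bt, Sftpb, Hbb-bs, Sftpc, Sftpa1, Hba-a1, Hba-a2, Ccl5 and Scgb1a1. Among neutrophil genes outside these 10, Saa3 differed by 1.34 (1.27 to 1.41), Plac8 by 0.86 (0.78 to 0.93), Zbp1 by 0.85 (0.60 to 1.11) and Ngp, a gene of the rule, by −1.60 (−1.76 to −1.44), which were named after their values were seen. The 21 genes became 12 without cells in which markers of other types made up at least 1% of UMIs, which were 11 saline and 7 NP Retnlg-low cells.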

How the data were processed

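Lungs pooled from 4 mice per treatment gave 1 library each (the study's methods give another number of mice). The authors aligned reads to mm10 with Cell Ranger (6.0 in the submitters' processing notes, 4 in the file headers) after bcl2fastq, and deposited unfiltered UMI count matrices of 32285 genes. Positions were taken from GENCODE M21 (GRCm38), which held 99.6% of the gene identifiers.

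From the deposited counts, cells were selected as described above, UMIs were summed per class and library, and ratios are log2 ratios of CPM (UMIs per 1000000 of the class) with counts under 3 set to 3. Cells are not replicates, so there are no p-values. Intervals are exact at 95% for shares and count ratios. Genes needed 200 UMIs, and list genes 20. For the share of cells with a gene, cells were thinned to 1000 UMIs and shallower cells left out. Doublets were not called. Members and lists were chosen with earlier results of these data known. Named genes are those of the rule and markers, the 10 highest and 10 lowest of each ratio, per list the 4 most abundant and the 3 with the largest ratio, and the 10 largest differences from Retnlg-high cells. Cxcr4, Ccrl2, Ccl3, Csf1, Socs1, Tap1, Psmb8, Gbp4, Gbp8, Iigp1 and the genes so marked in the text fall outside it and were chosen after their values were seen. Scripts were tested on simulated data. Analyses ran on pandas 2.3.3, scipy 1.17.1 and numpy 2.4.6 in Python 3.11.15, with matplotlib 3.10.9 for plots. Some genes are not reported here.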

Additional observations from a re-analysis of the deposited data

Results flagged for a closer look

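Of 5004 genes with at least 200 UMIs in each class, 25 had NP over saline ratios of opposite signs in Retnlg-low and Retnlg-high neutrophils with each interval beyond 0, with 1 library per treatment. They include 6 of the 10 genes with the largest differences and Il1r2, the decoy receptor of IL-1, with 0.35 and −0.30. Among the lists, both intervals lay beyond 0 for erythroid markers, while other lists of opposite signs, such as fibroblast markers (medians of 1.75 and −0.94), had an interval that held 0 in at least 1 class. These differences were not tested over samples, and their intervals leave out the spread between cells. For erythroid markers the median log2 ratio was −1.73 in Retnlg-low cells and 1.61 in Retnlg-high cells, on sums of 1768 saline and 396 NP CPM in Retnlg-low cells. Of its genes Hbb-bt had −2.93 and 1.61, Hbb-bs −2.69 and 1.40, Hba-a1 −1.73 and 1.56 and Hba-a2 −1.33 and 1.62. In saline Retnlg-low cells 1 cell held 7100 of 10522 Hbb-bs UMIs, and without cells in which markers of other types made up at least 1% of UMIs the list median was 0.67.

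Rarres2, which encodes chemerin, had 3.01 in Retnlg-low and −1.69 in Retnlg-high cells, and 1 NP cell held 160 of its 182 UMIs. Without the top cell of each library its ratio was 0.47. Ccl5, a chemokine of T and NK cells, had 1.39 and −0.92, and 1 cell held 202 of 320 saline and 350 of 476 NP UMIs.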

How the results depend on the processing

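The share ratio of Retnlg-low among mature neutrophils (log2 0.24) was −0.000598 with a median within each library, 0.37 with the lower quartile and 0.14 with the interferon limit at 0.1%. Genes at least 2-fold higher and lower in NP (87 and 32) were 49 and 13 with the lower quartile, 29 and 11 at 1000 UMIs per cell, 233 and 152 with 50 UMIs, 1266 and 501 with 1 UMI and 175 and 223 at 1.5-fold, and 20 were lower from the median gene. Genes higher and lower than in Retnlg-high cells (773 and 87) were 1285 and 149, 171 and 43 (thinned), 121 and 279 (centered) and 2679 and 215 (1.5-fold), with 1406 higher at 50 UMIs and 2207 at 1 UMI. The GTPase median (2.65) was 2.99 without the interferon limit, 2.22 with it at 0.1% and 1.84 in cells without its transcripts, and the TNF and NF-κB median stayed between 0.40 and 0.65. In cells without these transcripts the antiviral median (1.31) was 0.65, that of other interferon-γ genes (1.13) 0.59 and that of class I genes (0.90) 0.56. The 21 genes that differed between classes were 12 without cells carrying other markers and 12 without cells with other-type UMIs or in the top 5% of UMIs, and the 174 genes of the bins were 87 under the latter.

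Signs turned mainly in marker genes carried by few cells. The epithelial NP median was −2.32 (median within library), −2.51 (no interferon limit), −2.53 (granule limit at 0.5%) and −3.58 (no gate transcripts). Against Retnlg-high cells in NP it was −1.43, −1.92 and −1.80 under the first 3 of these and −0.77 with the lower quartile, and Lyz1 was −4.38, −4.44 and −4.49 under the first 3. Without other-type UMIs or top cells, Rarres2 was −0.0638, Hbb-bt 0.33, and alveolar macrophage and erythroid medians against Retnlg-high saline cells −0.43 and −0.88. Thinned, the alveolar macrophage median was −0.56. With free RNA subtracted, Scgb1a1 was 0.54. Without cells carrying other markers, an alternative chosen after seeing the data like that on gate transcripts, the erythroid median was 0.67 and 2.43 against Retnlg-high NP cells, Hbb-bt 0.48, Hbb-bs 0.45 and Hba-a1 0.87. From the median gene, medians against Retnlg-high cells in saline and NP were −0.20 and −0.21 (trafficking), −0.23 and −0.0112 (antiviral), −0.23 and −0.29 (glycolysis), −0.23 and −0.20 (suppressive), −0.12 and −0.0455 (pattern receptors) and −0.14 in saline (ribosomal). The cause of these differences was not tested.

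Limits are 1 pooled library per treatment, so that mouse-to-mouse spread is unmeasured, a class cut from a continuous range, a lower depth than in Retnlg-high cells, and few UMIs behind single low genes. No paired analysis was possible because each treatment had 1 library.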

Other observations

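Further genes of Retnlg-low neutrophils, chosen after their values were seen, had these levels. Plac8 was at 416 saline and 1046 NP CPM (log2 ratio 1.33, interval 1.27 to 1.38), with 0.47 in Retnlg-high cells. Il1r2, the decoy receptor of IL-1, was at 169 and 216 CPM (0.35, 0.25 to 0.45), with −0.30 in Retnlg-high cells. Klf2, a factor that holds leukocytes quiescent, was at 3766 and 3070 CPM (−0.29, −0.32 to −0.27), with −0.40 in Retnlg-high cells. Siglecf, reported as a marker of some tumor neutrophils and also of alveolar macrophages, was at 29.0 and 25.7 CPM (−0.18, −0.46 to 0.11), and Vegfa, the angiogenic factor, at 13.3 and 14.6 CPM (0.14, −0.25 to 0.53), so that for both the interval held 0.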
